A study of Rattus norvegicus with 2 samples.

Results

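The genes described here carry out or restrain programmed cell death: caspases, death receptors with their adaptors, mitochondrial death factors, inhibitors of apoptosis and the enzymes that cut DNA at the end of the process. The list names 39 genes, found on the arrays by matching the RefSeq accession of each probe to a rat gene symbol. All 39 had a probe among the 15443 genes named on the arrays. A gene counted as measured where a probe of it stood well above background, as the scanner software judges it, in red, green or both. That held for 37 of the 39 on the withdrawal array, where 10852 genes were measured in all, and for 36 of the 39 on the array labelled Bcl-2, where 10241 were.

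Primary neural stem cells from the cortex of SD rat embryos at day 14 were grown in N2 medium and bFGF, the fibroblast growth factor under which neural precursors proliferate, at 10 ng/mL. Transient transfection used 4 µg of a plasmid that carries rat Bcl-2, rBcl-2-MSCV-IRES-EGFP, or of the same plasmid without it, MSCV-IRES-EGFP (empty vector). All groups therefore went through transfection with a plasmid coding for the fluorescent reporter EGFP, and since transfection was transient a culture can hold cells without plasmid. Total RNA was compared on 2 two-colour Agilent arrays. Per the labels, red (Cy5) of the withdrawal array held empty vector cells without bFGF, kept in NB medium for 2 days, so that withdrawal and the change of medium cannot be told apart. Red of the other array held Bcl-2 cells with bFGF. Green (Cy3) of both arrays held empty vector cells with bFGF. Each comparison has 1 array, no dye swap and no replicate, so there is no test, and each value describes these arrays alone. In bulk RNA, fewer cells of a type and less RNA per cell cannot be told apart.

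Apoptosis runs along 2 main routes. In the mitochondrial route, which Bcl-2 blocks, cytochrome c leaves mitochondria and joins Apaf1 to activate caspase-9. In the receptor route, ligands such as Fas ligand bind death receptors at the cell surface, and adaptors such as Fadd recruit caspase-8. Both routes end in executioner caspases that cut cellular proteins and free a nuclease that fragments DNA. In the developing cortex many precursors and young neurons are removed in this way. Much of the pathway is controlled by cleavage, release and binding of proteins already present, which RNA levels do not measure.

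It is not settled which way the ratios run. Both arrays carry the same dye orientation against what the labels name as 1 control, yet their log2 ratios correlated at r = -0.68 over 42011 gene spots and at -0.84 over the 26861 spots well above background in all 4 channels. With the ratio of the scanner software, Agilent Feature Extraction, these values were -0.14 and -0.83. Treatments that act in opposite ways and a channel that holds another RNA than labelled cannot be told apart from this value. Ratios below are red over green as labelled, and with the sign of an array turned, higher becomes lower for every gene of it. Where 2 ratios follow a gene, the first is from the withdrawal array and the second from the array labelled Bcl-2. The probe of Bcl2 itself was at 0.39 and -0.02, the second being 0.04 by Feature Extraction, so it did not stand out in the cells labelled as transfected with this gene. Whether this probe lies in the transfected sequence is not known here.

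Median net signals, spot minus local background, were 284.5 in red and 189 in green on the withdrawal array, and 266 and 201 on the array labelled Bcl-2. Dark corner spots, which carry no probe, still had net signals of 3 in red and 62 in green on the withdrawal array, and of 36 and 65 on the array labelled Bcl-2. Values near these levels are close to those of no probe. Of 10 neural stem and progenitor markers, 9 and 8 were measured on the withdrawal array and the array labelled Bcl-2, Nes and Sox2 among them. By the loess ratio, 2 of the 9 were at least 1.5-fold higher on the withdrawal array, and 2 of the 8 lower on the array labelled Bcl-2. Fabp7, the brightest gene of the list in every channel, was at 1.26 and -0.91. Vim went the other way, at -0.49 and 0.56, and Sox2 was at -0.12 and -0.27. Feature Extraction counted 2 higher and 0 lower on the withdrawal array. On the array labelled Bcl-2 it counted 1 higher, Vim, and 2 lower. The summed level of this list, after scaling between channels, was 271570 in red and 205823 in green on the withdrawal array, and 213366 and 291946 on the array labelled Bcl-2. A sum follows the brightest genes of a list, here and in the lists below. Fabp7 had net signals of 194037 in red and 39019.5 in green on the withdrawal array, and 132690 and 75719.5 on the other. Vim and Sox2, also bright, lay below 0 on the withdrawal array. Among 10 microglia and blood markers 6 were measured on each array, Cx3cr1, C1qb and Cd68 among them, while Itgam, Ptprc, C1qa and Trem2 were not well above background in any channel. Cd68, a lysosomal protein of phagocytes, was at -0.32 and 0.75, the 1 gene of this list past 1.5-fold by the loess ratio. Feature Extraction counted 1 lower on the withdrawal array, the dim Aif1, and 1 higher on the array labelled Bcl-2, Cd68. The summed level of the microglia and blood list lay between 2594 and 2854 in all 4 channels. Markers of some other cells differed between channels. The summed level of the fibroblast and meninges list was 15076 in red and 6540 in green of the withdrawal array, and 4140 in red and 14335 in green of the array labelled Bcl-2. Of its measured genes, 3 of 8 passed 1.5-fold by the loess ratio on the first, all higher in red, and 5 of 7 on the second, all lower in red. By Feature Extraction these were 3 of 8 higher and 7 of 7 lower. The astrocyte list had summed levels of 68423 and 35666 on the withdrawal array, with 4 of 5 genes at least 1.5-fold higher by the loess ratio. On the array labelled Bcl-2 the levels were 39670 and 67829, with 3 of 5 lower. Feature Extraction counted 4 of 5 higher on the withdrawal array and 5 of 5 lower on the other. Gfap, a further astrocyte marker of this list, was not well above background in any channel. By the loess ratio, neuron markers had 2 of 5 genes at least 1.5-fold higher on the withdrawal array and 0 of 5 in either direction on the other, where Tubb3 at -0.58 lay just outside the limit. The Feature Extraction ratio counted 3 of 5 neuron markers higher on the first and 3 of 5 lower on the second. Oligodendrocyte lineage markers had 0 of 6 by the loess ratio on each array, against 2 higher and 2 lower by Feature Extraction, and endothelium markers 0 of 2 by both ratios. The part of these cells in the ratios of the death genes was not tested.

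By the loess ratio the members past 1.5-fold were Pdcd4, an inhibitor of translation that binds the helicase eIF4A, Casp6, the executioner caspase-6, and Dapk1, a calmodulin-regulated kinase that promotes death. Fas, the receptor of Fas ligand, joined them under the Feature Extraction ratio. The 250 bases upstream of the RefSeq start of these 4 genes are shown because Pdcd4, Casp6 and Dapk1 passed 1.5-fold, and Fas 2-fold by the Feature Extraction ratio. The sequences are from RefSeq, build GRCr8, written 5′ to 3′ on the strand of the gene. Capitals mark a match on either strand to the GC box GGGCGG, the CCAAT box CCAAT or the AP-1-like pattern TGANTCA. In the last, N stands for any base. The matches do not overlap each other here.
Pdcd4 (chr1:262926445-262926694, plus strand): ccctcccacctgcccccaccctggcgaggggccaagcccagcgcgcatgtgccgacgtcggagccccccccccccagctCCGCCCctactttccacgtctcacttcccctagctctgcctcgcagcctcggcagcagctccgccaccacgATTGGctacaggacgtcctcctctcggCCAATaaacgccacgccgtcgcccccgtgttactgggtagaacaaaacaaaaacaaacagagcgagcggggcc
Casp6 (chr2:221140136-221140385, plus strand): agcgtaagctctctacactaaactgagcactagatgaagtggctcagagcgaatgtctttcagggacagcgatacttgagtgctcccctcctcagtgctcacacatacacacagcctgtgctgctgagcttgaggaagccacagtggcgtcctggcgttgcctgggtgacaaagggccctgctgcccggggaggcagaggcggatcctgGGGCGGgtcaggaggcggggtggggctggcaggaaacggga
Dapk1 (chr17:4096582-4096831, minus strand): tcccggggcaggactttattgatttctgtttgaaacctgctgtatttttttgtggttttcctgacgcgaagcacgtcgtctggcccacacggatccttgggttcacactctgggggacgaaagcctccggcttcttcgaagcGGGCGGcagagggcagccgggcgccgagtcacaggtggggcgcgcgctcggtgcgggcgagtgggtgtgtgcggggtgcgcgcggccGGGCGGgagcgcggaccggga
Fas (chr1:241211905-241212154, plus strand): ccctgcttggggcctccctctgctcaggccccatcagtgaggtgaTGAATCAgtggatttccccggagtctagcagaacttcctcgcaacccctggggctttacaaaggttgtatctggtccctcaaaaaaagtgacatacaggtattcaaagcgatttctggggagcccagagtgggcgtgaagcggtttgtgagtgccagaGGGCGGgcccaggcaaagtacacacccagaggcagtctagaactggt

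Each of these 4 windows held the GC box, Dapk1 with 2 matches and the others with 1. Over all members with an entry in the promoter table it was found in 24 of 33, and in 40.3% of 19005 protein-coding promoters. The median GC content was 59.2% in the member windows and 54.8% in all. The CCAAT box occurred 2 times in Pdcd4, in 11 of 33 members and in 35.5% of all promoters. The AP-1-like pattern, which allows any middle base, occurred in Fas with A in the middle. It was found in 5 of 33 members and in 5.82% of all promoters. The FoxO site GTAAACA, the E-box CACGTG, the NF-kB site and the p53 decamer, searched on both strands, had 0 matches in the 4 windows. They were found in 1, 0, 0 and 1 of 33 members, against 2.98%, 6.38%, 1.33% and 6.2% of all promoters. A match of letters is not evidence of a binding site.

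On the withdrawal array, 3 of 37 members were at least 1.5-fold higher in red, labelled without bFGF, and 0 were at least 1.5-fold lower. They were Pdcd4, Casp6 and Dapk1. A gene was counted if its log2 ratio reached that fold and all its measured probes had the same sign. In the same count over all genes, 10.7% were at least 1.5-fold in either direction, 7.94% higher and 2.79% lower. The share of members, 8.11%, was thus near the background. At 2-fold the count was 0 of 37, against 2.89% of all genes. The median log2 ratio of the members was 0.06, against 0.03 over all genes, and the quartiles were -0.12 and 0.19 for the members, against -0.16 and 0.25 for all genes. With the sign turned, 3 members would be lower and the median would be -0.06. By Feature Extraction the median was -0.04 for the members and -0.02 over all genes, so its sign depends on the ratio used.

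On the array labelled Bcl-2, 2 of 36 members were at least 1.5-fold lower in red, labelled Bcl-2 with bFGF, and 0 were higher. They were Pdcd4 and Casp6. Over all genes 8.93% were at least 1.5-fold in either direction, 2.29% higher and 6.64% lower, while the share of members was 5.56%. At 2-fold the count was 0 of 36, against 2.56% of all genes. The median was -0.10 for the members and -0.01 over all genes. With the sign turned, 2 members would be higher and the median would be 0.10. The shares of members counted were thus near or below those of all genes on both arrays.

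**Figure D1:**
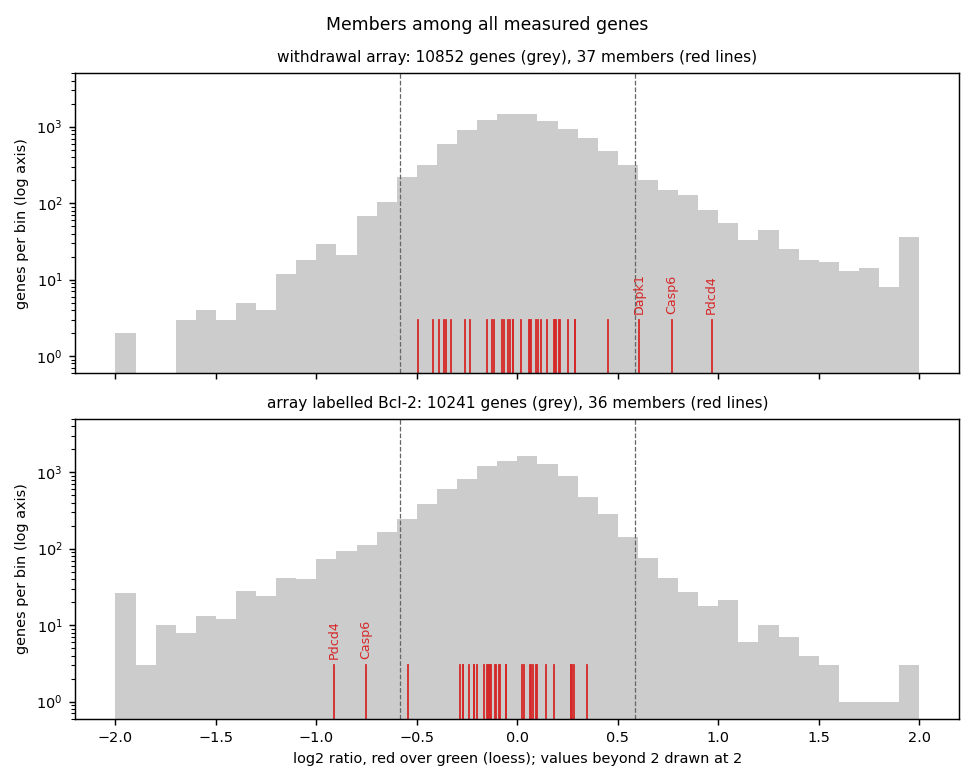
Histogram of log2 ratios (x axis, red over green after loess) of all measured genes per bin (y axis, log scale) on the withdrawal array (top) and the array labelled Bcl-2 (bottom). Red lines are the 37 and 36 measured members, and dashed lines mark 1.5-fold. Pdcd4, Casp6 and Dapk1 lie past 1.5-fold at the top and Pdcd4 and Casp6 at the bottom, and the other members lie between the dashed lines.

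Pdcd4 had net signals of 1226 in red and 373 in green on the withdrawal array. That gave a log2 ratio of 0.97, or 1.95-fold higher in the channel labelled without bFGF. The Feature Extraction ratio was 1.06 with an error of 0.23, which its noise model derives from the spots and which leaves out any spread between cultures. It had 622.5 in red and 648 in green on the array labelled Bcl-2, a log2 ratio of -0.91, or 1.88-fold lower in the channel labelled Bcl-2, with -1.03 by Feature Extraction. The median net signal is higher in red, so that like net signals give a ratio below 0 after normalization. Pdcd4 was the furthest from 0 of all members on each array by the loess ratio.

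Casp6 cleaves nuclear lamins, among other proteins. Its net signals were 2101.5 in red and 723.5 in green on the withdrawal array, a log2 ratio of 0.77 and 1.70-fold. They were 1275.5 and 1045 on the array labelled Bcl-2, a log2 ratio of -0.76 and 1.69-fold lower. Feature Extraction gave 0.80 and -0.74, each with an error of 0.22. Casp6 was thus the 1 measured caspase past 1.5-fold by the loess ratio on either array.

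Dapk1 had 1540.5 in red and 598 in green on the withdrawal array, a log2 ratio of 0.61 and 1.52-fold, just inside the limit. The member just outside it was Tnfrsf12a, at -0.49 and 1.41-fold lower. Red and green of Dapk1 were 1171 and 698.5 on the array labelled Bcl-2, with a log2 ratio of -0.27 and, by Feature Extraction, -0.22 with an error of 0.21. There the member nearest to the limit from inside was Casp6 and from outside Fas, at -0.54.

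Put on a common log2 scale across channels by Aquantile scaling, Pdcd4 was at 9.94 in red and 8.97 in green of the withdrawal array, and at 9.02 in red and 9.93 in green of the array labelled Bcl-2. Casp6 was at 10.67 and 9.90 in the same order on the first, and at 9.90 and 10.65 on the second. For both genes, red of the withdrawal array was close to green of the array labelled Bcl-2, and the channels labelled as the same control were not. Over 109 spots of member probes well above background in all channels, green of the array labelled Bcl-2 minus green of the withdrawal array had an SD of 0.22. Green of the array labelled Bcl-2 minus red of the withdrawal array had an SD of 0.12, and red of the array labelled Bcl-2 minus green of the withdrawal array 0.13. Over all 26861 such spots the 3 SDs were 0.40, 0.14 and 0.15. The series' design text pairs empty vector without bFGF and Bcl-2 with bFGF as its conditions, and which RNA each green channel held was not tested.

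**Figure D2:**
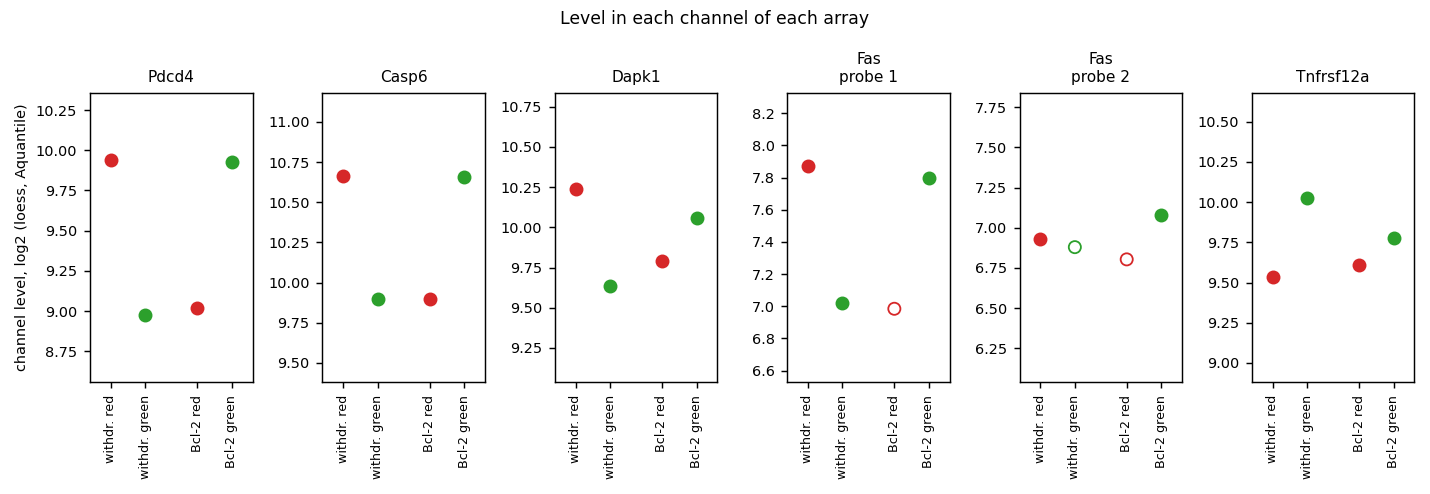
Level of 5 members in red and green of each array, as log2 signal after loess and Aquantile scaling (y axis, the same span in each panel). Filled points were well above background and open points were not, and Fas is shown for each of its 2 probes. Pdcd4 and Casp6 are high in red of the withdrawal array and in green of the array labelled Bcl-2.

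Fas showed the widest gap between ways of processing. Its brighter probe had net signals of 188 in red and 90 in green on the withdrawal array, with a loess log2 ratio of 0.85 and a Feature Extraction ratio of 2.14. The dimmer probe had 46 and 82.5, was not well above background in green, and gave 0.05 and 1.22. In red of the array labelled Bcl-2 neither probe was well above background. The brighter had 55.5 in red and 161.5 in green, and by the normalized levels green was at least 1.75-fold above red. The dimmer had 44 and 102, at least 1.21-fold. Both folds are bounds, taken from the levels after loess and Aquantile scaling and not from the net signals. The green level is divided by the larger of 2 red levels. These are that of the probe and the weakest of any probe well above background in red. For both Fas probes this gave the fold of the loess ratio. Dye bias particular to a probe is not removed. As a gene, Fas was at 0.45 and -0.54 by the loess ratio and at 1.68 and -2.39 by Feature Extraction. Its sign was the same under every processing setting tried, and its size was not. Fas was not counted at 1.5-fold by the loess ratio on either array, and it was past 2-fold by Feature Extraction on both.

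No surface receptor passed 1.5-fold by the loess ratio on either array. Tnfrsf12a, the receptor of the cytokine TWEAK, had 915 in red and 785 in green on the withdrawal array, a log2 ratio of -0.49, and of -0.62 by Feature Extraction. It had 1016 and 578 on the array labelled Bcl-2, a ratio of -0.17 by loess and 0.00 by Feature Extraction. Tnfrsf1a, the main TNF receptor, was at -0.15 on the withdrawal array and -0.29 on the array labelled Bcl-2. Tnfrsf1b, the second TNF receptor, was at 0.15 and -0.15, and Tnfrsf21, known as death receptor 6, at 0.07 and -0.13. Faslg, the Fas ligand, had dim signals of 83.6 in red and 92.5 in green on the withdrawal array and a ratio of 0.18, with -0.11 on the array labelled Bcl-2. All 6 genes of receptors and ligand lay below 0 on the array labelled Bcl-2, where 51.8% of all genes did, but Tnfrsf12a was at 0.00 by Feature Extraction. No receptor but Fas passed 1.5-fold on that array under that ratio.

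The adaptors and kinases of the receptor complexes held no member at 1.5-fold by the loess ratio on either array. On the withdrawal array 6 of 8 lay below 0, with a median of -0.18, and 5 of these 6 stayed below 0 under every processing setting tried, Ripk1 being the exception. Of all genes 45.8% lay below 0. Daxx, a Fas-binding protein and histone chaperone, was lowest at -0.37, followed by Bcl10, a scaffold that activates NF-kB, at -0.35 and Traf2, an adaptor of TNF receptors, at -0.33. These 3 were on the other side of 0 on the array labelled Bcl-2, at 0.18, 0.28 and 0.27. Fadd, the adaptor that binds caspase-8, was dim, with 76 in red and 115 in green on the withdrawal array and 122.5 and 107.5 on the array labelled Bcl-2. Its loess ratios were -0.24 and 0.14, and its Feature Extraction ratios were -0.67 and 0.61, past 1.5-fold on both arrays. Daxx also passed 1.5-fold by Feature Extraction on the withdrawal array, at -0.60. Ripk1, a kinase that decides between survival and death at TNF receptors, was at -0.12 and -0.14, and Ripk3, the kinase of necroptosis, at -0.08 and -0.13. Cflar, a decoy that holds caspase-8 in check, was at 0.21 and -0.24, and Tradd, the first adaptor at the TNF receptor, at 0.10 and 0.07.

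Among caspases, Casp8, the initiator of the receptor route, and Casp1, which matures interleukin-1β, were not well above background in any channel. Casp8 had net signals of 9.5 in red and 68.5 in green on the withdrawal array, and 42.5 and 78 on the array labelled Bcl-2, close to the dark corners. Casp12, linked to stress of the endoplasmic reticulum in rodents, was measured in red of the withdrawal array alone, at 26.7 against 74.7 in green. Casp4, an inflammatory caspase that senses lipopolysaccharide, was measured on both arrays, at 0.06 and -0.05. Casp9, the initiator activated by Apaf1, was at 0.29 and -0.22, and at 0.62 and -0.55 by Feature Extraction. On the withdrawal array its brighter probe, with 229 in red and 145 in green, gave 0.28 by Feature Extraction. The dimmer probe, with 67 and 81 and not well above background in green, gave 0.96. Casp2, an initiator linked to DNA damage and cell division, was at 0.12 and 0.09 over 3 probes, the brightest of which had 13969.5 in red and 7188.5 in green on the withdrawal array.

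The mitochondrial factors lay within 1.5-fold on both arrays. Apaf1, the scaffold of the apoptosome, was at 0.25 on the withdrawal array and -0.11 on the array labelled Bcl-2. Cycs, cytochrome c, was at -0.39 and 0.10, its probes giving -0.57 and -0.21 on the withdrawal array. Diablo, which frees caspases from their inhibitors, was at 0.29 and -0.14, and Htra2, a protease with a like role, at -0.02 and -0.09. Aifm1, a flavoprotein that moves to the nucleus in caspase-independent death, was at -0.26 and 0.35. Its net signals on the array labelled Bcl-2 were 12070 in red and 3842 in green. By the loess ratio it was the highest member there, or the lowest with the sign turned, while Fadd was the highest by Feature Extraction. Endog, a mitochondrial nuclease, was at -0.07 and -0.05.

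None of the inhibitors of apoptosis passed 1.5-fold on either array, by either ratio. Xiap, which blocks caspases directly, was at 0.02 on both arrays by the loess ratio. Birc2 and Birc3, ubiquitin ligases at TNF receptors, were at 0.19 each on the withdrawal array and at -0.27 and 0.08 on the array labelled Bcl-2. Birc6, a very large ubiquitin ligase, was at 0.09 and 0.27 by loess, and at -0.17 and 0.50 by Feature Extraction. All 4 lay above 0 on the withdrawal array by the loess ratio, as did 54.2% of all genes, but of these only Birc2 stayed above 0 under every processing setting, and Feature Extraction put Xiap and Birc6 below 0. Among the DNA-cutting enzymes and their partners, Dffa, the inhibitor of the caspase-activated nuclease, was at 0.21 and 0.03. Dffb, that nuclease, was at -0.02 and -0.09. Parp1, a DNA repair enzyme cut by caspases, was at -0.42 and 0.06, with net signals of 22774.8 in red and 16394 in green on the withdrawal array. Of the remaining genes, Dapk3, a kinase related to Dapk1, was at -0.04 and -0.21, and Pdcd6, a calcium-binding protein, at -0.05 and -0.20. Bag6, a chaperone of membrane proteins, was at -0.12 and 0.27.

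**Figure D3:**
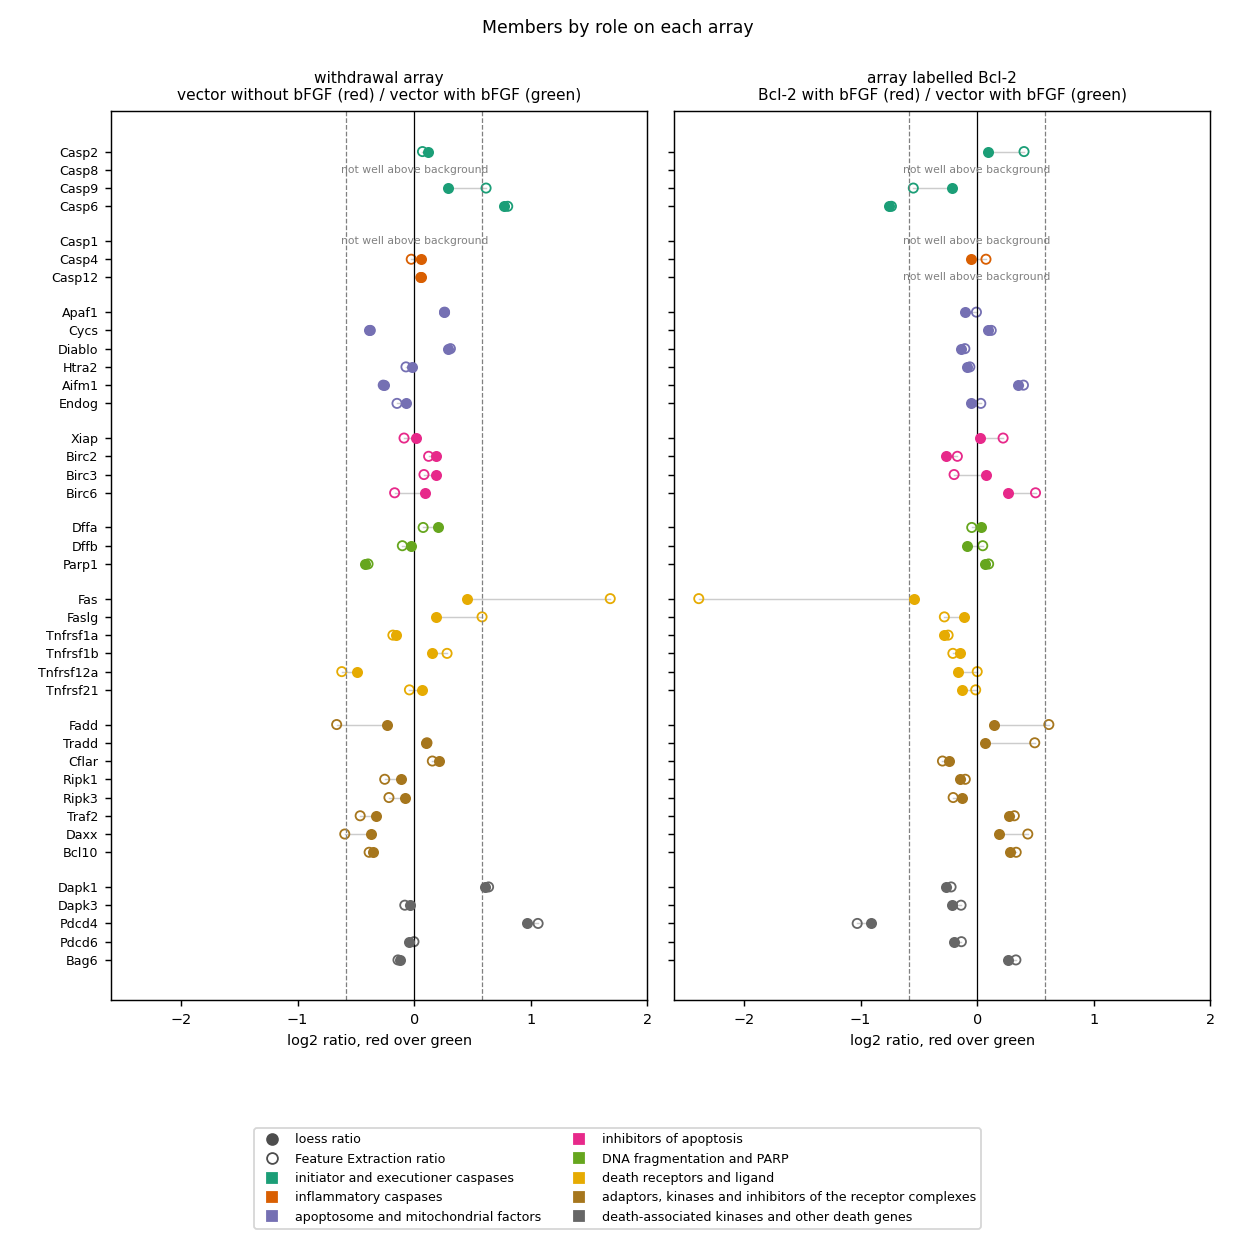
Log2 ratio of red over green (x axis) of each of the 39 members (rows, coloured by role) on the withdrawal array (left) and the array labelled Bcl-2 (right). Filled circles are the loess ratio, open circles the Feature Extraction ratio, and dashed lines mark 1.5-fold. Most filled circles lie between the dashed lines, and the pair of circles is furthest apart for Fas.

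The Feature Extraction ratio put more genes past 1.5-fold than the loess ratio did, members and all genes alike. By it, 8 of 37 members, or 21.6%, were at least 1.5-fold on the withdrawal array, 5 higher and 3 lower, against 23.3% of all genes, of which 14.9% higher and 8.39% lower. It was 4 of 36, or 11.1%, on the array labelled Bcl-2, with 1 higher and 3 lower, against 22.8% of all genes, of which 9.95% higher and 12.8% lower. With the signs turned, these would be 3 higher and 5 lower, and 3 higher and 1 lower. The 5 higher on the withdrawal array were Pdcd4, Casp6, Dapk1, Casp9 and Fas, and the 3 lower Fadd, Daxx and Tnfrsf12a.

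The spread within an array was taken from probes and spots. Of the members measured on the withdrawal array 10 had several measured probes, whose log2 ratios spanned 0.04 to 0.80 with a median span of 0.20, the widest being Fas. The spans of 10 such members on the array labelled Bcl-2 ran from 0.0029 to 0.54 with a median of 0.22. Casp2, Tnfrsf21 and Xiap had probes of both signs on the withdrawal array, and Apaf1, Dffa and Xiap on the array labelled Bcl-2. The other 27 and 26 members rest on 1 probe, Pdcd4, Casp6 and Dapk1 among them. Probes printed at 9 or 10 spots had an SD between spots of 0.01 to 0.21 on the withdrawal array and 0.02 to 0.13 on the array labelled Bcl-2. Such spread is technical and says nothing of the spread between cultures.

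The sum of both log2 ratios, added because the authors' deposited table gives, for the second sample, the product of both ratios, compares red of the second array with green of the first, provided that the channels left over held like RNA. By it 1 of 36 members was at least 1.5-fold, Tnfrsf12a at -0.66, against 2.56% of 10160 genes, of which 2% higher and 0.561% lower. With both signs turned Tnfrsf12a would be higher, at 0.66. By Feature Extraction it was 3 of 36, Tradd higher, Fas and Tnfrsf12a lower, against 9.73% of all genes. Pdcd4 was at 0.05, Casp6 at 0.01 and Dapk1 at 0.34. The members' median was -0.04, against -0.00 over all genes. In the deposited value table itself, after centring, Tnfrsf12a was at -0.53, Fas at -0.62 and Tradd at 0.69. Dye bias of a probe enters the sum from both arrays and was not removed.

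Outside the list, 2 genes of the pathway passed 2-fold by the loess ratio. Of 32 further apoptosis genes, 25 were measured on the withdrawal array, where 3 were at least 1.5-fold higher by this ratio, against 7.94% of all genes, and 0 lower, against 2.79%. Their median was 0.11, against 0.03 over all genes. They were Bbc3, the BH3-only death gene PUMA, at 1.62, Nol3, an inhibitor of caspase recruitment, at 1.03, and Aifm2, an oxidoreductase that protects from lipid peroxidation, at 0.69. Of the 23 measured on the array labelled Bcl-2, 5 were at least 1.5-fold lower by the loess ratio, against 6.64% of all genes, and 0 higher, against 2.29%. The median was -0.17, against -0.01 over all genes. The Feature Extraction ratio gave the same counts, with Bmf in place of Bok. Its shares of all genes were larger, 14.9% higher and 8.39% lower on the withdrawal array. They were 9.95% and 12.8% on the array labelled Bcl-2. Bmf was dim there, with 44 in red and 80 in green, and well above background in green alone. By the loess ratio on the array labelled Bcl-2, Bbc3 was at -1.31, Nol3 at -0.98 and Aifm2 at -0.66. Bax, a pore former of the mitochondrial outer membrane, was at -0.71 and its relative Bok at -0.61. Aifm2, Bax, Bok and Bmf were named after their values were seen. Of 24 genes of the NF-kB pathway, through which TNF receptors signal survival, 15 and 14 were measured and 0 were at least 1.5-fold on either array by the loess ratio. By Feature Extraction 2 were higher and 1 lower on the withdrawal array, while the array labelled Bcl-2 had 2 higher and 0 lower. The shares of all genes by that ratio are those given above. With the signs turned, the further apoptosis genes would be 3 lower on the withdrawal array and 5 higher on the array labelled Bcl-2. The loess ratios of the NF-kB pathway ran from -0.50 to 0.33 on the withdrawal array and from -0.30 to 0.21 on the array labelled Bcl-2.

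Across the 9 processing settings, the 3 members counted on the withdrawal array held their direction. The filters on dim probes and the mean over probes could not move these 3 genes. Each has 1 probe, well above background in both channels of both arrays. The value table repeats the Feature Extraction ratio of these genes, apart from a constant shift per array. It is thus not a separate way of processing. Pdcd4 ran from 0.95 to 1.24 on the withdrawal array and from -1.17 to -0.91 on the array labelled Bcl-2, Casp6 from 0.77 to 1.03 and from -0.88 to -0.74, and Dapk1 from 0.61 to 0.87 and from -0.37 to -0.22. Of all measured members, 22 of 37 on the withdrawal array and 26 of 36 on the array labelled Bcl-2 had the same sign under every setting. The signs of the other 15 and 10 depended on the processing, and their ratios above set no direction. Signs were taken against 0 and not against the median of all genes. On the withdrawal array that median was 0.17 with median centring without loess and 0.16 with the value table.

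**Figure D4:**
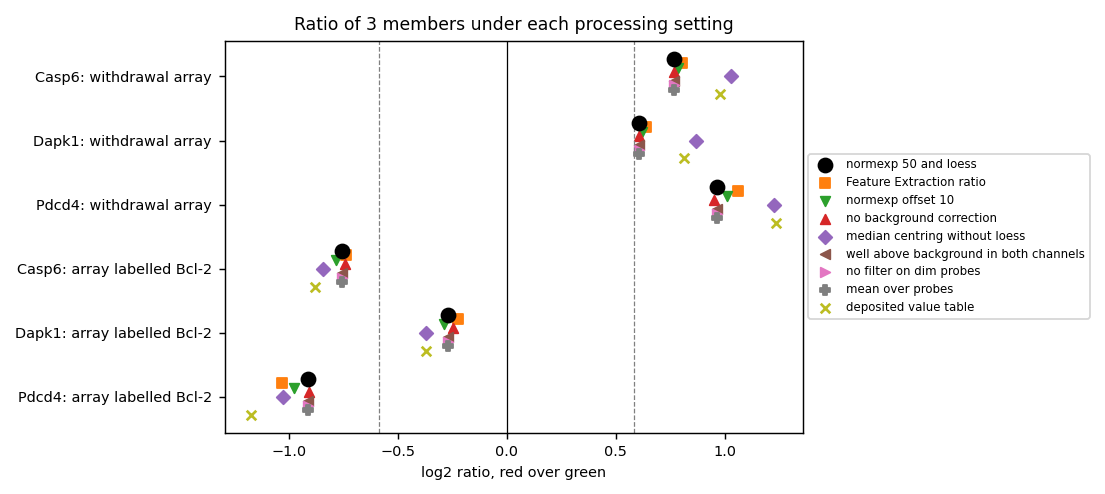
Log2 ratio of red over green (x axis) of Casp6, Dapk1 and Pdcd4 on each array (rows) under 9 processing settings (symbols), with dashed lines at 1.5-fold. On the withdrawal array all points of the 3 genes lie above 0, and on the array labelled Bcl-2 all lie below 0. The filters on dim probes and the mean over probes repeat the reported value for these genes by construction. The value table repeats their Feature Extraction ratio apart from a constant shift per array.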

How the data were processed

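For each spot the deposited files hold the median intensity over pixels and that of the local background, not normalized. Per the file headers they were made by Feature Extraction 11.5.1.1 with protocol GE2_1105_Oct12, scanner G2505C, array design 028282 and build rn4. The submitters' processing notes name version 8.5.1.1. Also deposited are the software's log10 ratio (red over green), its error score and its p-value, which come from a spot noise model, and flags coded as other values. A further table of the authors gives a ratio on a linear scale. Its columns were set against the ratios of the software's processed signals over 28392 probes, after a constant per comparison was taken out. With a tolerance of 0.05 in log2, 100% matched the withdrawal ratio in the first column and the product of both ratios in the second. Its own array's ratio was matched by 7.05% in the second. The medians of its columns were 0.932 and 0.944, and neither how it was centred nor its direction is given in the labels.

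limma 3.58.1 under R 4.3.3 applied normexp (offset 50) and then loess within each array, control spots having weight 0. These steps were tested on simulated data. The simulation changed brighter probes alone, by 2-fold or more, so it does not cover dim members or changes near 1.5-fold. Outlier spots (534 and 576 of 42877) were left out and 0 were saturated. Replicate spots were averaged per probe and probes combined by their median per gene. Accessions were matched to RefSeq genes of GRCr8, used for names, for 60.4% of 30367 probes. Counts were made in Python 3.11.15 with pandas 2.3.3 and numpy 2.4.6. The members, lists, motifs and rules were chosen with earlier results of these data known. Every member is named. Members at least 1.5-fold by both the loess and the Feature Extraction ratio on an array get channel values by rule, and Fas and others that the processing moved were added after their values were seen. Of other genes, Bcl2 and up to 4 per list at least 2-fold are named. Alternatives were the Feature Extraction ratio, an offset of 10, no background correction, no loess, other filters on dim probes, the mean over probes and the value table. The value table is not independent of the Feature Extraction ratio.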

Additional observations from a re-analysis of the deposited data

How the results depend on the processing

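The count of members at least 1.5-fold on the withdrawal array, 3, became 8 by Feature Extraction and 5 by the deposited value table. On the array labelled Bcl-2 the count, 2, was 4 with each of these. For that array the value table was taken as its second column over its first, since the second holds the product of both ratios. Over all genes the Feature Extraction ratio also gave larger shares, 23.3% against 10.7% on the withdrawal array and 22.8% against 8.93% on the array labelled Bcl-2, and 9.73% against 2.56% for the sum. By the sum of both ratios the count, 1, was 3 with Feature Extraction, 2 with the value table and 0 with median centring without loess. The share of all genes was not counted for the value table or for median centring. Their counts are thus no result about the members. The median of all genes in the value table was 0.16 on the withdrawal array, -0.10 on the array labelled Bcl-2 and 0.08 for the sum. The members' median on the withdrawal array was 0.18 with median centring without loess, which moved the median of all genes there to 0.17. The cause of the larger counts was not tested. All 48 ratios of Pdcd4, Casp6 and Dapk1 under the alternatives kept their direction and lay within 1.5-fold of the value reported. Those under the filters on dim probes and the mean over probes could not differ from it. Each gene has 1 probe, well above background in both channels. Those under the value table are the Feature Extraction ratios shifted by a constant per array, so these 2 settings are not independent. No paired analysis was possible because each comparison has 1 array. The number of arrays limits the precision. Members near background, Fas, Fadd, Casp9, Casp12 and Birc3 among them, have ratios that rest on small signals.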
